A study of Mus musculus with 6 samples.

Results

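Glycolysis and hypoxia response genes were compared between the tissue above and the tissue below the aorta of mouse embryos. The set held 34 genes: glucose transporters, glycolytic enzymes, lactate handling genes, switches of glycolytic flux, targets of the hypoxia-inducible factors (HIFs) and the oxygen sensing genes themselves. They were chosen by name, and 32 of the 34 were found by gene symbol in the platform table. Gpi1 and Eno1 were not named there, so their levels were not analysed here. All embryos were C57Bl/6 at embryonic day 11.5, and the labels name no allele and no treatment. Dorsal tissue was cut from between notochord and aortic roof, and ventral tissue from below the vessel, by laser microdissection of stained frozen sections. Each tissue was profiled on 3 Affymetrix arrays, labelled biological replicates 1 to 3, from RNA amplified from picogram amounts. Both tissues came from the same embryos per the labels, which do not say whether an array pooled several embryos. With 3 arrays a tissue, precision is limited by their number. P-values of the main fit rest on how the tissue difference varied between replicate numbers, with the variance of each gene drawn toward that of all genes tested.

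Glycolysis splits glucose into pyruvate, which is reduced to lactate and exported or passed to the mitochondria. When oxygen is low, prolyl hydroxylases of the Egln family stop marking HIF alpha subunits for destruction, and HIFs then raise transcription of glucose transporters, most glycolytic enzymes and Pdk1, which closes the entry of pyruvate into mitochondria. Stem cells of the blood are known for their use of glycolysis, and the tissue below the aorta is the side on which they mostly emerge.

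None of the glycolysis and hypoxia genes differed between ventral and dorsal tissue past the threshold. In limma, 25 of the 32 genes reached the brightness filter and were tested, and 0 had an adjusted p below 0.05, where 0.515% of all 12028 genes tested did. At an unadjusted p below 0.05 there were 5 of 25 (4 without the replicate number as a block), with 10.7% over all genes. The count was 4 without replicate 1, 0 without replicate 2 and 3 without replicate 3. No share over all genes was computed for these fits or for the one without the block. Whether the lower counts are particular to the set is therefore not known. In the blocked fit with all pairs, the shares over all genes were 5.6% on the ventral and 5.14% on the dorsal side. Its 5 genes were the lactate exporter gene Slc16a3, the glycolytic enzyme gene Tpi1, Pdk1, the mitophagy receptor gene Bnip3l and the phosphofructokinase gene Pfkp. Pfkp had the higher mean in dorsal tissue, and the others in ventral tissue. The log2 fold changes of the 25, ventral minus dorsal, ran from -0.66 (Pfkp) to 0.70 (Slc16a3). Of them 10 were positive and 15 negative, with a median of -0.05, beside a median of -0.01 over all genes tested.

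The data bound most differences to less than a doubling. The 95% interval of the log2 fold change lay within a 2-fold change in either direction for 21 of the 25 genes, and for 83.5% of all genes tested. The exceptions were Pfkp, Slc16a3, Pdk1 and Ddit4. The median standard error was 0.20 for the 25 genes and 0.20 over all genes. Dorsal and ventral arrays did not overlap for 4 of the 25, with 15.4% over all genes, so that this share lay near the background. The 4 were Slc16a3, Tpi1 and Bnip3l on the ventral side, with 7.5% over all genes, and Pfkp on the dorsal side, with 7.88%. All 3 pairs had the same sign for 11 of the 25, or 44%, with 32.3% over all genes, so that such a pattern was common.

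**Figure D1:**
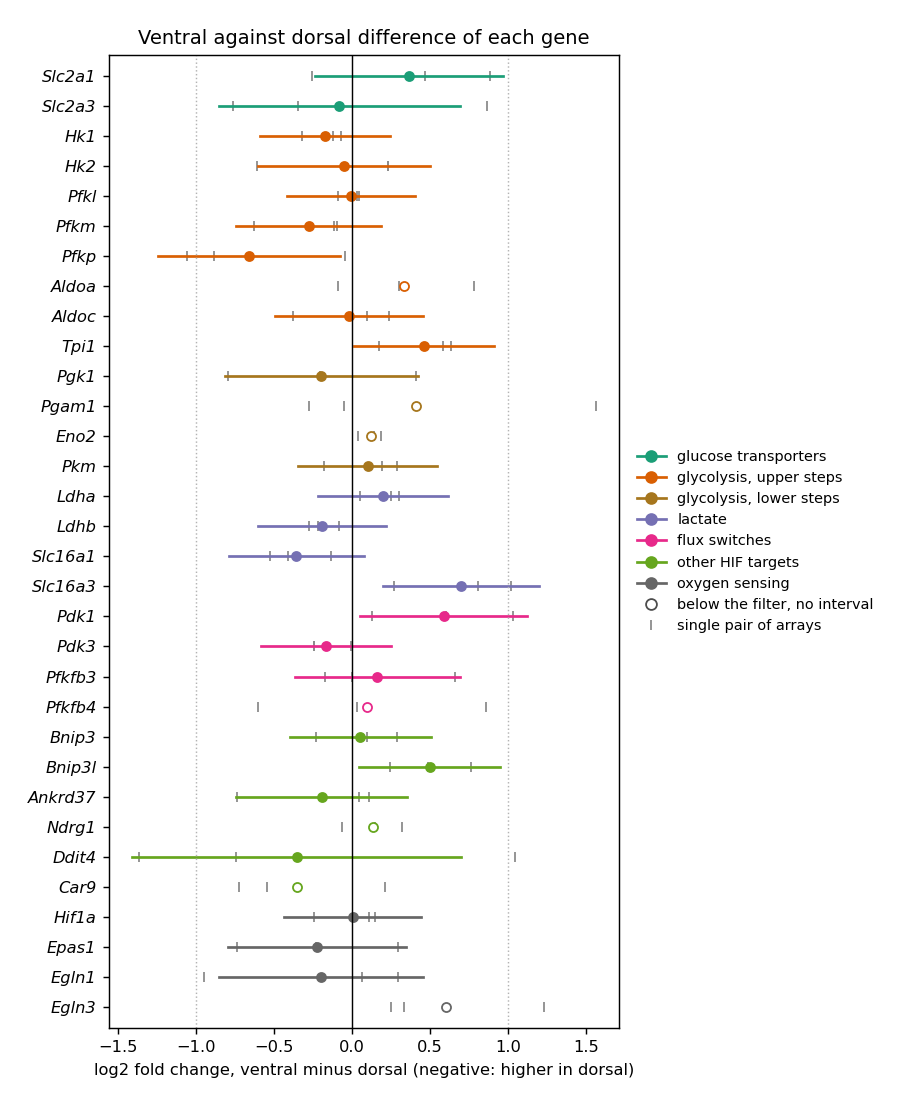
Log2 fold change, ventral minus dorsal, of each of the 32 genes, coloured by role. Filled points with lines are limma estimates with 95% intervals, open points are genes below the brightness filter, ticks are the 3 same-numbered pairs of arrays, and dotted lines mark a 2-fold change. The intervals of 5 genes leave out 0, those of Slc16a3, Tpi1, Pdk1, Bnip3l and Pfkp, and none of these genes passed after adjustment.

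The tissues were compared on markers of neighbouring cell types. Of 9 tested markers of sclerotome and cartilage 8 were negative (dorsal side) and 3 passed there, and of 10 smooth muscle and pericyte genes all 10 were positive and 1 passed on the ventral side. Of 7 tested notochord markers 4 were positive (Krt8, Krt18, Krt19 and Car3) and 3 negative (Shh, Cd24a and Sox5). Their median was 0.40, with Shh at -0.36, and none passed the threshold. Noto and Foxa2 lay below the filter, and 9 of 10 listed genes were named. The list therefore did not lie on 1 side. Marker levels of other cell types are given as the sum of unlogged levels over a list, which was not tested. The sums did not overlap between tissues for erythroid markers and overlapped for macrophage and endothelial markers. Erythroid markers ranged from 781 to 878 on dorsal and from 317 to 507 on ventral arrays (8 of 8 tested genes negative, 0 past the threshold; 9 of 12 named, with Rhag below the filter). Macrophage markers ranged from 505 to 827 and from 736 to 1078 (11 of 11 positive, 0 past; Ptprc below the filter), and endothelial markers from 657 to 1028 and from 848 to 1234 (9 of 11 positive, 0 past; Esam below the filter). In bulk tissue, fewer cells of a type and less RNA per cell cannot be told apart.

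Among the lactate genes, Slc16a3 and Slc16a1 lay on opposite sides. Slc16a3 encodes MCT4, a low-affinity transporter known for lactate export from glycolytic cells and a HIF target. Its log2 level was 5.14, 4.93 and 5.60 on dorsal arrays 1 to 3 and 5.95, 5.95 and 5.87 on ventral arrays 1 to 3. The ventral arrays lay close together and above all dorsal arrays. The means were 5.22 ± 0.34 (SD, n = 3) and 5.92 ± 0.05 (n = 3), a log2 fold change of 0.70 ± 0.21 (SE; limma adjusted p = 0.289), or 1.62-fold.

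Slc16a1 encodes MCT1, a higher-affinity transporter that carries lactate in either direction. Its log2 level was 5.22, 5.70 and 5.83 on dorsal and 5.08, 5.29 and 5.31 on ventral arrays. Each ventral array lay below the dorsal array of its number, although the tissues overlapped. The log2 fold change was -0.36 ± 0.18 (adjusted p = 0.556). Taken as a ratio within each array, Slc16a3 over Slc16a1 was higher in ventral than in dorsal tissue in all 3 pairs, by 0.94, 1.43 and 0.80 (log2; mean 1.06 ± 0.33, SD over 3 pairs), and the tissues did not overlap. No test was run on such ratios. They restate the differences of both genes, and no share over all genes was computed for them.

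The lactate dehydrogenase genes showed smaller differences. Ldha encodes the subunit that favours making lactate from pyruvate, and its log2 level was 7.78, 8.06 and 8.22 on dorsal and 7.84, 8.31 and 8.53 on ventral arrays. Ldhb encodes the subunit that favours the reverse reaction, with 8.5, 8.57 and 7.94 on dorsal and 8.23, 8.36 and 7.86 on ventral arrays. For both genes the tissues overlapped. The log2 fold changes were 0.20 ± 0.17 for Ldha (adjusted p = 0.771) and -0.19 ± 0.17 for Ldhb (adjusted p = 0.777). The ratio of Ldha over Ldhb was higher in the ventral array of every pair, by 0.33, 0.47 and 0.39 (mean 0.40 ± 0.07, SD over 3 pairs), while its values over the 6 arrays overlapped between tissues.

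Pdk1, a kinase that switches off pyruvate dehydrogenase, had log2 levels of 5.61, 5.57 and 5.77 on dorsal and 5.74, 6.18 and 6.81 on ventral arrays. Every ventral array was above the dorsal array of its number, but ventral 1 lay below dorsal 3. The same sign in all 3 pairs was seen for 32.3% of all genes tested. The log2 fold change was 0.59 ± 0.22 (adjusted p = 0.424). Without replicate 3 it was 0.37, less by over 1.5 times. Pdk3, a second kinase of that family, had 7.82, 8.03 and 7.50 on dorsal and 7.81, 7.79 and 7.25 on ventral arrays, with overlap. Its log2 fold change was -0.17 ± 0.17 (adjusted p = 0.820). The ratio of Pdk1 over Pdk3 was higher on the ventral side in each pair, by 0.14, 0.84 and 1.28.

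The phosphatases that reverse this phosphorylation had higher dorsal means, opposite to Pdk1 but on the same side as Pdk3. Pdp1 had log2 levels of 6.35, 6.59 and 6.39 on dorsal and 5.83, 6.21 and 5.26 on ventral arrays, and Pdp2 had 5.21, 4.94 and 5.88 on dorsal and 4.77, 3.85 and 4.73 on ventral arrays. For both genes all ventral arrays lay below all dorsal arrays, as they did for 7.88% of all genes tested. The log2 fold changes were -0.68 ± 0.21 (adjusted p = 0.313) and -0.90 ± 0.21 (adjusted p = 0.185), and neither passed. The subunit genes of the complex itself differed less on average. Pdha1, Pdhb, Dlat, Dld and Pdhx had log2 fold changes from -0.19 to 0.21, none past the threshold. The pairs of Pdha1, Dlat and Pdhx disagreed in sign, and the standard errors of Pdha1 (0.26) and Pdhx (0.28) exceeded those of both phosphatases.

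**Figure D2:**
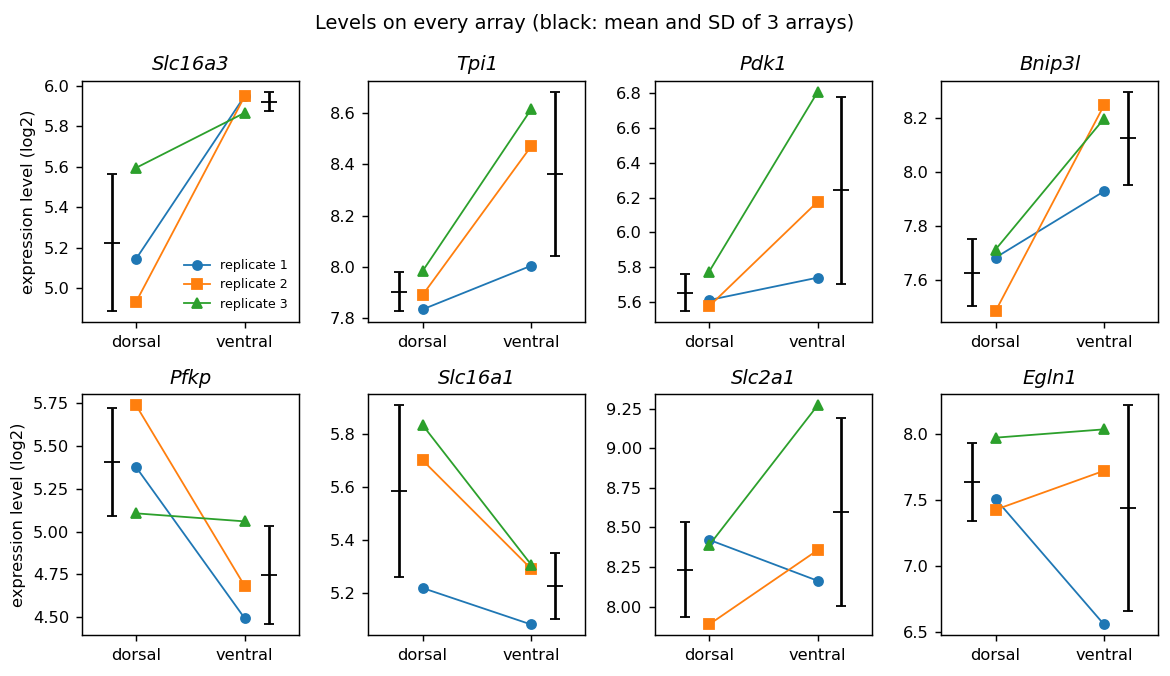
Log2 levels of 8 genes on every array, with lines joining the dorsal and ventral arrays of one replicate number and black bars for the mean and SD of 3 arrays. Slc16a3, Tpi1, Pdk1 and Bnip3l were above the dorsal array in each ventral array of a pair, and Pfkp and Slc16a1 were below. Such a shared sign in all 3 pairs was seen for 32.3% of all genes tested. Slc2a1 and Egln1 varied most among the ventral arrays, up to 9.27 and down to 6.55.

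Promoter sequences of the genes with the 5 lowest p-values are shown because HIFs bind a short core, ACGTG or GCGTG, on either strand. Capitals mark each core, with overlapping matches counted as 1. RefSeq (GRCm38.p6) gave a promoter for Pdk1, Tpi1, Slc16a3 and Pfkp, and none for Bnip3l, and Ldha is added as the gene for lactate dehydrogenase A, a textbook HIF target. For Pdk1 and Tpi1 the 150 bases before the start are printed, from chr2:71873074-71873223 (plus strand) and chr6:124814159-124814308 (minus strand). Other transcripts of Slc16a3, Pfkp and Ldha begin further upstream, so only sites of 30 bases are printed for them.
Pdk1: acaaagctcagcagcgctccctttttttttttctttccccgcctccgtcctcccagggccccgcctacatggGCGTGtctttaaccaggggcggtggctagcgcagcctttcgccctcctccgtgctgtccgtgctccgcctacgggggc
Tpi1: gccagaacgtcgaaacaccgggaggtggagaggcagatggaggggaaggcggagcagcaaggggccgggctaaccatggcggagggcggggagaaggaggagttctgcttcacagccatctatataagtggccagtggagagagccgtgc
Slc16a3, chr11:120949034-120949063, plus strand: gcggtgACGTGcgcgggggACGTGccgcgc
Pfkp, chr13:6648890-6648919, minus strand: ccctaacagaacGCGTGtccatactatcct
Pfkp, chr13:6648822-6648851, minus strand: ggccccgcccttGCGTGagtcccgcccatc
Pfkp, chr13:6648777-6648806, minus strand: cgctcgggcgggGCGTGggcggctcctgcg
Ldha, chr7:46845654-46845683, plus strand: cagcaCACGTGgagccactcttgcagggac
Ldha, chr7:46845751-46845780, plus strand: gcctaCACGTGggttcccgCACGTccgctg

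Slc16a3 held a pair of cores 27 and 14 bases before its start, and Pdk1 had 1 core 78 bases before the start shown and 0 before another RefSeq start. Pfkp, whose mean was on the dorsal side, had 3 cores, at 136, 68 and 23 bases, and Tpi1 had 0 in these bases and in the 250 before its start. Promoters of 30 of the 34 genes were in the table, Gpi1 and Eno1 included (not Slc2a3, Bnip3l, Ndrg1 and Epas1), and a core lay within 250 bases before the start for 35 of their 43 starts, 81.4%, beside 38.6% of all 32851 starts. These promoters were richer in G and C than others, with a median of 62.8% against 52.4%. Among starts with at least 60% GC the shares were 96.0% of 25 and 63.8% of 9178. Counted by gene, they were 21 of 21 and 65.5% of 8115. The set holds HIF targets by choice, and nearby starts of 1 gene can share a core, so these shares are no test. A match describes the letters and not a bound site.

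Of the first steps of glycolysis, none passed. Slc2a1 encodes GLUT1, the main glucose transporter of embryonic tissue, and its log2 level was 8.42, 7.89 and 8.39 on dorsal and 8.16, 8.36 and 9.27 on ventral arrays. Slc2a3 encodes GLUT3, a high-affinity transporter of neurons, placenta and leukocytes, and had 5.78, 4.84 and 5.51 on dorsal and 5.02, 4.5 and 6.38 on ventral arrays. Both were highest on ventral 3, and ventral 1 and 2 lay within or below the dorsal range. The log2 fold changes were 0.37 ± 0.25 for Slc2a1 (adjusted p = 0.694) and -0.08 ± 0.32 for Slc2a3 (adjusted p = 0.962), and both depended on the pairs used. Slc2a1 was at 0.68 without replicate 1 and 0.11 without replicate 3, and Slc2a3 was at 0.26 without replicate 1.

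Hexokinases trap glucose in the cell by phosphorylation. Hk1, the widely expressed form, had log2 levels of 4.98 to 5.24 on dorsal and 4.85 to 5.01 on ventral arrays, and Hk2, the form induced by HIF, had 5.46 to 6.22 and 5.61 to 5.88. The tissues overlapped for both, with log2 fold changes of -0.17 ± 0.17 and -0.05 ± 0.23. Their adjusted p were 0.810 and 0.967.

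Phosphofructokinase makes the committed step, and its 3 subunit genes did not lie alike. Pfkp, the platelet-type subunit, had log2 levels of 5.38, 5.74 and 5.11 on dorsal and 4.49, 4.68 and 5.06 on ventral arrays. All ventral arrays lay below all dorsal arrays, though in replicate 3 the difference was only -0.05. The means were 5.41 ± 0.32 (SD, n = 3) and 4.74 ± 0.29, a log2 fold change of -0.66 ± 0.24 (adjusted p = 0.40), or 1.58-fold on the dorsal side. It was -0.97 without replicate 3 (adjusted p = 0.226).

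Pfkl, the liver-type subunit, had log2 levels of 6.20, 6.62 and 6.63 on dorsal and 6.24, 6.52 and 6.68 on ventral arrays. Its same-numbered arrays differed by 0.03, -0.09 and 0.04, and its log2 fold change was -0.01, with a 95% interval from -0.41 to 0.40. Pfkm, the muscle-type subunit, had 5.25, 4.80 and 5.09 on dorsal and 4.62, 4.69 and 5.0 on ventral arrays, lower in each ventral array of a pair (-0.28 ± 0.19; adjusted p = 0.698). Without replicate 1 its log2 fold change was -0.10. The ratio of Pfkl over Pfkp was higher in ventral tissue by 0.92, 0.96 and 0.09 in the 3 pairs, and the tissues did not overlap in it. With Pfkl nearly level, this ratio mostly restates the difference of Pfkp. The ratio of Pfkm over Pfkp differed by 0.26, 0.94 and -0.05, and the tissues overlapped in it.

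The remaining glycolytic enzymes gave 1 gene whose tissues did not overlap. Tpi1, which interconverts the triose phosphates, had log2 levels of 7.83, 7.89 and 7.98 on dorsal and 8.0, 8.47 and 8.62 on ventral arrays. Ventral 1 exceeded the highest dorsal array by little, and the other 2 ventral arrays stood well above. The log2 fold change was 0.46 ± 0.19 (adjusted p = 0.454), or 1.38-fold. Pkm, pyruvate kinase, which makes the pyruvate, lay between 10.21 and 10.57 on all 6 arrays with a log2 fold change of 0.10 ± 0.19. Pgk1, which makes the first ATP of the pathway, ranged from 4.89 to 5.95 within dorsal tissue alone (-0.20 ± 0.26). Aldoc, the aldolase of brain, had 4.45 to 4.96 on dorsal and 4.58 to 4.75 on ventral arrays (-0.02 ± 0.20).

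Some genes of the set were too dim to test. Aldoa (aldolase A, mean log2 level 3.49 on dorsal and 3.82 on ventral arrays), Pgam1 (phosphoglycerate mutase, 3.30 and 3.71), Eno2 (the neuronal enolase, 4.22 and 4.34), Pfkfb4 (3.50 and 3.60), Ndrg1 (4.37 and 4.51), Car9 (carbonic anhydrase 9, 3.08 and 2.73) and Egln3 (3.82 and 4.42) had means below 4.52. Several glycolytic genes have processed pseudogenes of near-identical sequence in the mouse genome, and how such probes were grouped was not stated in the labels. The levels of Aldoa and Pgam1 are therefore uncertain. How far the same limit holds for the tested glycolytic genes was not examined. When all 24015 named genes were tested, these 7 had adjusted p from 0.604 (Egln3) to 0.969 (Pfkfb4).

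Bifunctional enzymes of the Pfkfb family set phosphofructokinase activity through fructose 2,6-bisphosphate. Pfkfb3, the HIF-inducible form with high kinase activity, had log2 levels of 5.22, 4.86 and 5.52 on dorsal and 5.04, 5.52 and 5.52 on ventral arrays. Its tissues overlapped almost fully, and the log2 fold change was 0.16 ± 0.22 (adjusted p = 0.869).

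Of the HIF targets outside metabolism, Bnip3l and Bnip3 encode related receptors that mark mitochondria for removal, and Bnip3l is also required to clear them from maturing red cells. Bnip3l had log2 levels of 7.68, 7.48 and 7.71 on dorsal and 7.93, 8.25 and 8.20 on ventral arrays, without overlap. The means were 7.63 ± 0.12 (SD, n = 3) and 8.12 ± 0.17, a log2 fold change of 0.50 ± 0.19 (adjusted p = 0.421). Bnip3 had 6.03, 6.37 and 6.80 on dorsal and 6.31, 6.47 and 6.57 on ventral arrays, with full overlap (0.05 ± 0.19; adjusted p = 0.960). The ratio of Bnip3l over Bnip3 differed, ventral minus dorsal, by -0.04, 0.66 and 0.72 in the 3 pairs. The erythroid markers given above were higher on dorsal arrays, and their part in the Bnip3l values was not tested.

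Ddit4, an inhibitor of mTORC1 induced by hypoxia and other stress, varied more among replicates than between tissues. It had log2 levels of 6.63, 6.43 and 5.22 on dorsal and 5.88, 5.07 and 6.27 on ventral arrays, and its pairs disagreed in sign (-0.75, -1.37 and 1.05). The log2 fold change was -0.36 ± 0.44 (adjusted p = 0.855) with all pairs, 0.15 without replicate 2 and -1.06 without replicate 3 (adjusted p = 0.242). Ankrd37, an ankyrin repeat gene induced by HIF, had 5.55 to 6.00 on dorsal and 5.09 to 6.05 on ventral arrays (-0.19 ± 0.23).

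The oxygen sensing genes did not differ past the threshold either. Hif1a, the alpha subunit controlled mainly through its protein, had log2 levels of 8.83, 8.73 and 8.88 on dorsal and 8.59, 8.84 and 9.03 on ventral arrays, with a log2 fold change of 0.00 ± 0.18 and a 95% interval from -0.43 to 0.44. Its sign turned when arrays were shifted to the same median (-0.012). Epas1, which encodes HIF2A and is prominent in endothelium, had 5.81, 6.40 and 5.55 on dorsal and 5.07, 6.16 and 5.84 on ventral arrays (-0.23 ± 0.24; adjusted p = 0.821). Transcript levels do not show the amount of HIF protein.

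Egln1 encodes PHD2, the main hydroxylase that marks HIF alpha subunits. It had log2 levels of 7.51, 7.42 and 7.97 on dorsal and 6.55, 7.72 and 8.03 on ventral arrays. Ventral 1 was far below the other 5 arrays, which shared 1 range. The log2 fold change was -0.20 ± 0.27 (adjusted p = 0.873), and without replicate 1 it was 0.18. Egln3, the HIF-inducible hydroxylase PHD3, had 4.08, 3.28 and 4.08 on dorsal and 4.42, 4.51 and 4.33 on ventral arrays; they did not overlap, but all 6 lay below the filter level.

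**Figure D3:**
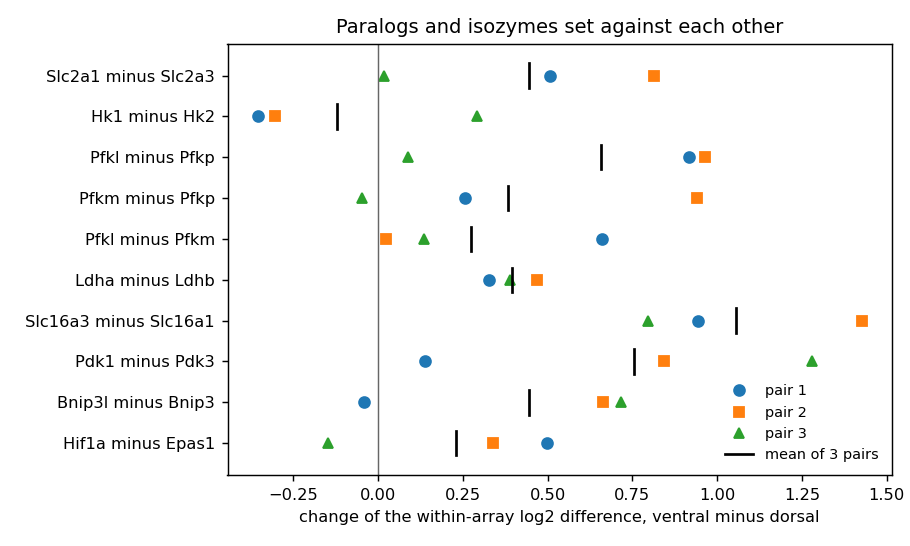
Change, ventral minus dorsal, of the within-array log2 difference between related genes, with 1 point for each same-numbered pair and a bar for the mean of 3 pairs. Slc16a3 over Slc16a1 had the highest mean change, 1.06, of the 10 ratios compared, and Ldha over Ldhb varied least among pairs. Each ratio restates the differences of its genes and was not tested.

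The mean level of the set differed more between single arrays than between tissues. In such a mean, the 10 positive and 15 negative tissue differences offset each other. The mean deviation of the 25 genes from their means over all arrays was -0.05, -0.01 and 0.07 on dorsal 1 to 3 and -0.18, -0.02 and 0.19 on ventral 1 to 3, so both extremes were ventral arrays. Over all genes tested these deviations lay between -0.02 and 0.01, but the processing equalized the arrays, which holds such a mean near 0. Over 68 other tested genes of the surrounding pathway, described below, they were -0.03, 0.00 and 0.01 on dorsal arrays. On ventral arrays those 68 had -0.04, -0.05 and 0.10. Of the 25 genes, 9 were highest on ventral 3, with 16.5% over all genes, among them Slc2a1, Slc2a3, Tpi1, Ldha, Pdk1 and Egln1. On ventral 1, 7 were lowest, with 20.9% over all genes. They were Hk1, Pfkm, Pfkp, Slc16a1, Hif1a, Epas1 and Egln1. Such counts were not particular to ventral arrays. Dorsal 2 was also lowest for 7, with 15.8% over all genes, and dorsal 1 for 6, with 13.3%. Dorsal 3 was highest for 6, with 19%, and lowest for 0, with 17.9%. Gene by gene, the median SD of the 25 was 0.29 on dorsal and 0.26 on ventral arrays. The ventral SD was the larger for 11 of the 25, or 44%, with 52.6% over all genes.

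Marker levels differed among the arrays of each tissue as well, again as sums of unlogged levels. Smooth muscle and pericyte markers summed to 2962 on ventral 1, 1549 on ventral 2 and 922 on ventral 3, and neuronal markers to 1398, 2228 and 2669 (4 of 11 tested neuronal genes positive and 7 negative, 0 past the threshold; Elavl4 below the filter). Endothelial markers summed to 848, 1135 and 1234 on ventral arrays. On dorsal arrays 1 to 3 the sums were 633, 831 and 427 for smooth muscle and pericyte markers. They were 2263, 2630 and 2659 for neuronal and 657, 1028 and 659 for endothelial markers. The part of these differences in the levels of the glycolysis and hypoxia genes was not tested.

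**Figure D4:**
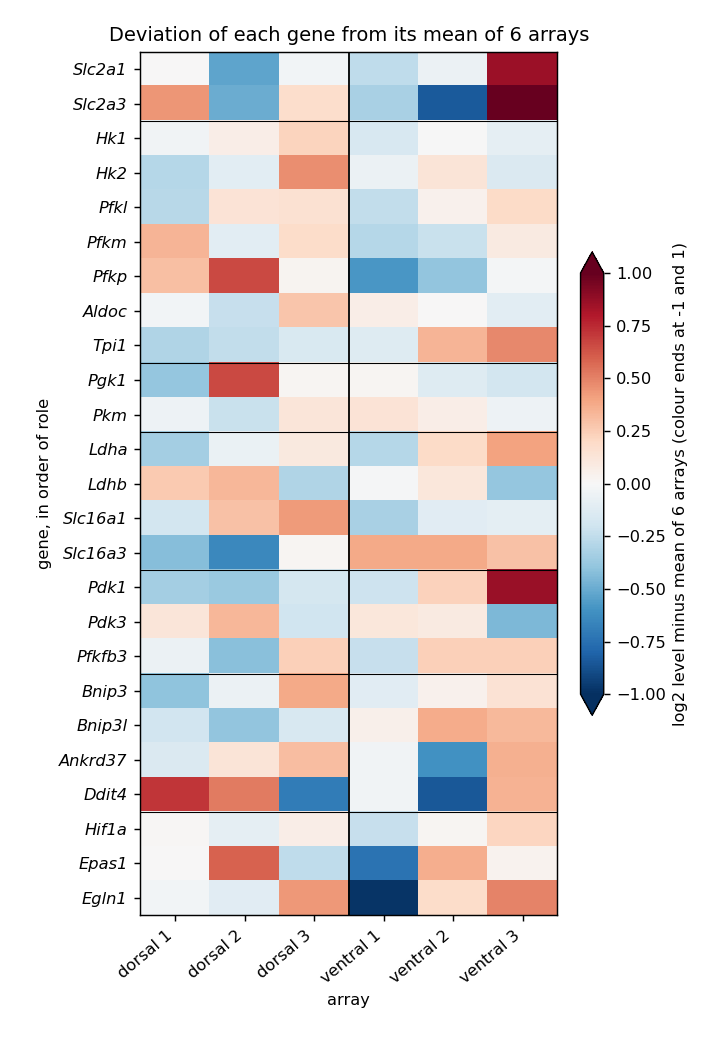
Deviation of each of the 25 tested genes from its own mean over the 6 arrays (log2), in order of role, with a vertical line between dorsal and ventral arrays. In their means over the 25 genes, the columns of ventral 1 (-0.18) and ventral 3 (0.19) stand apart more than the 2 tissues do. Tissue differences of opposite sign offset each other in such means.

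The surrounding pathway was described by 93 further genes, 85 of them named and 68 tested, none of which passed (7 at an unadjusted p below 0.05, or 10.3%, with 10.7% over all genes). Of the 68, 33 had positive and 35 negative log2 fold changes, with a median of -0.01. Dorsal and ventral arrays did not overlap for 11 of the 68, or 16.2%, with 15.4% over all genes, so that this share lay near the background. The lowest adjusted p was that of Anxa2, an annexin induced by hypoxia and abundant in mesenchyme and endothelium. It had log2 levels of 8.56, 8.11 and 8.33 on dorsal and 9.64, 9.16 and 9.36 on ventral arrays, with every ventral array above every dorsal array. The log2 fold change was 1.05 ± 0.17 (adjusted p = 0.0723), and with an intensity trend in limma it passed (adjusted p = 0.0169).

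Among 10 tested sugar transporter and glycolytic genes outside the set, 3 were positive and 7 negative. Pgm1, a phosphoglucomutase that links glycogen to glycolysis, had log2 levels of 5.22, 5.32 and 5.66 on dorsal and 5.94, 6.00 and 6.78 on ventral arrays, without overlap (0.84 ± 0.18; adjusted p = 0.163). Bpgm, which makes the 2,3-bisphosphoglycerate of red cells, had 5.70, 5.37 and 5.88 on dorsal and 4.86, 4.97 and 5.18 on ventral arrays, also without overlap (-0.64 ± 0.18; adjusted p = 0.268). The erythroid markers given above were likewise lower on all ventral arrays, and their part in the Bpgm values was not tested. Eno3, the muscle enolase, had a log2 fold change of 0.24 ± 0.17 and Slc2a8, a glucose transporter, one of -0.33 ± 0.20.

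Among 9 tested regulators of HIF, 3 were positive and 6 negative. Hif3a, whose products can restrain the other alpha subunits, had log2 levels of 5.10, 5.01 and 5.39 on dorsal and 5.74, 6.05 and 5.96 on ventral arrays, and all ventral arrays were above the dorsal ones (0.75 ± 0.19; adjusted p = 0.207). Hif1an, the asparagine hydroxylase that blocks HIF activity, had 5.23, 5.60 and 5.63 on dorsal and 4.12, 5.15 and 5.51 on ventral arrays, lowest on ventral 1 as Egln1 was (-0.56 ± 0.23; adjusted p = 0.464). Arnt2, a partner of HIF alpha subunits, had a log2 fold change of -0.34 ± 0.25, and Siah2, a ubiquitin ligase for the hydroxylases, one of 0.24 ± 0.22.

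Of 23 other tested hypoxia targets, 12 were positive and 11 negative, with a median of 0.03. Beside Anxa2, the highest was the heme oxygenase gene Hmox1 (0.38 ± 0.26), and the lowest were the histone demethylase gene Kdm4b (-0.31 ± 0.18) and the adenylate kinase gene Ak4 (-0.28 ± 0.23). Among 9 tested genes of pyruvate handling, 4 were positive and 5 negative, and beside the phosphatases the outer values were those of Pdk2 (0.26 ± 0.20) and Dlat (0.21 ± 0.19). Vegfa, the best known HIF target in vessels, was at -0.07 ± 0.20.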

How the data were processed

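The values deposited by the authors are on the log2 scale, with 1 for each probe set on each array. They were made with RMA in Affymetrix Expression Console, per the submitters' processing notes. RMA subtracts background, equalizes the arrays' distributions and combines probes. Software versions and the build were not given. Of 24973 probe sets, 24015 carry 1 symbol in the platform table.

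Ventral minus dorsal differences were fitted with limma 3.58.1 in R 4.3.3 (lmFit and eBayes, two-sided), and the replicate number entered as a block. P-values were adjusted by Benjamini-Hochberg over the 12028 named genes whose mean level was at least 4.52, the median probe set's. Calls were made at 0.05, with 6.41 degrees of freedom. The fit was tested on simulated data. The labels say that both tissues came from the same embryos, though not that a number marks an embryo. After the tissue means were removed, the correlation between arrays of one number was 0.0992, 0.0763 and 0.226. Between arrays of different numbers it ran from -0.153 to 0.0805. The highest of these, dorsal 2 with ventral 1, exceeded the 0.0763 of number 2.

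The genes described and the lists around them were chosen with earlier results of these data known. Every gene of the set is accounted for. Of the surrounding pathway genes, those past the threshold and the 2 highest and 2 lowest differences of each list were named, and other genes are named where the text turns on them. Genes of the set shown on every array were those past the threshold or with separate tissues and 1 sign in all pairs, with their isozymes. Others shown so (Pdk1, Pdk3, Ldha, Ldhb, Slc2a1, Slc2a3, Pfkfb3, Ddit4, Hif1a, Epas1, Egln1), and Vegfa and the pyruvate dehydrogenase subunits, were added after their values were seen. Alternatives were no block, no or a stricter brightness filter, equal array medians, cyclic loess, an intensity trend, and leaving out each pair. Sequences come from a RefSeq promoter table (GRCm38.p6).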

Additional observations from a re-analysis of the deposited data

How the results depend on the processing

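No gene of the set passed under any of the 9 alternatives, the lowest adjusted p being 0.226 (Pfkp without replicate 3). Over all genes 62 passed, 10 without the brightness filter and 94 with an intensity trend. Among other pathway genes 0 passed, and 1 (Anxa2) with the trend. In the fit with no replicate block, 0 genes of the set and 59 of all genes passed, and the block changed no call among these genes. The median log2 fold change of the set was -0.05, and -0.067 to 0.0066 when 1 pair was left out. Signs turned for Hif1a with equal array medians (-0.012) and for Pfkl after cyclic loess (0.016). Leaving out 1 pair also turned signs, with ranges of -0.55 to 0.26 (Slc2a3), -0.19 to 0.23 (Hk2), -0.030 to 0.038 (Pfkl), -0.14 to 0.16 (Aldoc), -0.50 to 0.10 (Pgk1), -0.085 to 0.33 (Pfkfb3), -0.066 to 0.19 (Bnip3), -0.35 to 0.078 (Ankrd37), -1.06 to 0.15 (Ddit4), -0.067 to 0.13 (Hif1a), -0.48 to 0.032 (Epas1) and -0.44 to 0.18 (Egln1). The cause of these turns was not tested, and the 95% interval of each of these genes with all pairs spanned 0.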

Other observations

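Genes of neighbouring sugar pathways were measured on the same arrays. Of 7 tested genes of the pentose phosphate pathway, which draws on glycolytic sugars to make NADPH and ribose, 4 had positive and 3 negative log2 fold changes, and none passed in limma. Rpe, the ribulose phosphate epimerase, had log2 levels of 5.65, 5.89 and 5.92 on dorsal and 5.09, 5.25 and 5.35 on ventral arrays, without overlap (-0.59 ± 0.17; adjusted p = 0.268). Tkt, the transketolase, had 7.40, 7.38 and 7.59 on dorsal and 7.66, 7.67 and 7.65 on ventral arrays, also without overlap but by a small margin (0.21 ± 0.17; adjusted p = 0.760). Taldo1 (-0.30 ± 0.21) and Pgd (0.27 ± 0.19) overlapped between the tissues.

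Of 10 tested genes of gluconeogenesis and glycogen metabolism, 7 had positive and 3 negative log2 fold changes, with a median of 0.18, and none passed or was free of overlap. The highest were Ppp1r3c, which targets protein phosphatase to glycogen (0.44 ± 0.34; adjusted p = 0.729), and the glucose phosphatase gene G6pc3 (0.32 ± 0.17; adjusted p = 0.586). The lowest were Pck1 (-0.07 ± 0.17) and the glycogen branching enzyme gene Gbe1 (-0.04 ± 0.24).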
